A study of Arabidopsis thaliana with 4 samples.

Results

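The comparison was between wbc19 mutant seedlings of *Arabidopsis thaliana* grown with kanamycin and wbc19 mutant seedlings grown without it, 1 RNA-seq library on each side. The genes described had a mean of at least 20 FPKM (fragments per kilobase of transcript, scaled to the mapped reads of the library) over the 4 libraries of the series. There were 3702 such genes and assembled loci out of 33539, of which 3397 were protein-coding genes. The wbc19 mutant was the T-DNA insertion line SALK_107731, and the control was SALK_064816C, whose T-DNA lies upstream of TRANSPARENT TESTA 4 without disrupting a gene. Homozygous seeds of both lines were sown on MS medium without kanamycin or with 50 mg/l kanamycin, and 5-day-old seedlings were taken whole. Both lines carry T-DNA with the bacterial kanamycin resistance gene NPTII, and each line is 1 insertion allele. Poly(A) RNA was sequenced from one end. Each of the 4 conditions (control, control + kanamycin, wbc19 mutant, wbc19 mutant + kanamycin) was 1 library, so no difference below has a replicate or a test. Below, the mutant pair is the library labelled wbc19 mutant followed by that labelled wbc19 mutant + kanamycin, the control pair is control followed by control + kanamycin, and the value without kanamycin is always given first.

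Kanamycin is an aminoglycoside that binds the small subunit of bacterial-type ribosomes. Plants hold such ribosomes in their plastids and mitochondria, and bleaching of the cotyledons is the familiar sign of kanamycin in a sensitive seedling. WBC19 (ABCG19) is a half-size ABC transporter of the ABCG family, and its overexpression is known to protect plants from kanamycin. Genes of the plastid and its translation, of the handling of metals and of the response to foreign compounds were therefore grouped, alongside other abundant functions, by the gene descriptions in the deposited table.

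WBC19 itself (AT3G55130, chromosome 3, 20433839 to 20436453 in TAIR10.1) was listed at 0 in both libraries of the control pair and stood at 3.00 and 2.3 FPKM in the mutant pair, about 10 and 4 reads. A listing of 0 allows up to 1.54 and 0.775 FPKM, the level of 3 reads, in the control pair, for counting error only. This direction is the reverse of what the labels of a knockout and its control would give. It rests on few reads, and a value per gene does not show where in the gene they lie. Libraries are called by their labels. For a transcript 1000 bases long, a single read corresponded to an estimated 0.624 to 1.3 FPKM, and the median member had an estimated 78.5 and 36.5 reads in the mutant pair. The library labelled wbc19 mutant stood apart from the other 3. It had the fewest genes above 0, 9013 against 11090 to 15072, and its Spearman correlation with the others over the members was 0.258 to 0.375, against 0.436 to 0.618 among the others. Markers of green cotyledons were abundant in every library, with a summed level of 15463 to 20125 FPKM over 8 genes. Of 18 root markers only PYK10 was a member, and the list summed to 1438 and 573 FPKM in the mutant pair and 996 and 664 FPKM in the control pair, mostly PYK10, with 12 and 7 of the list at 0 in the mutant pair. Seed reserve genes (cruciferins, 2S albumins and oleosins by description) summed to 45.5 and 1.94 FPKM in the mutant pair and 63.8 and 41.4 FPKM in the control pair, and none of the 23 was a member. Of the 23, 21 and 22 were at 0 in the mutant pair and 18 and 21 in the control pair, so each sum rests on few genes.

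Of the 3702 members, 925 were at least 2-fold higher with kanamycin in the mutant pair, a difference of 1 or more in log2(FPKM + 1), and 1040 were at least 2-fold lower. These are 25% and 28.1% of the members, the background against which each group is read, and 53.1% in either direction. The share also depends on the level of the genes, as given below, so this background is not matched to the level of a group. The median log2 difference was −0.06, and the middle 50% of the members lay between −1.15 and 0.997. In the control pair, 901 members were at least 2-fold higher and 817 lower with kanamycin, which is 24.3% and 22.1%. Equalising the upper quartiles of the libraries moved the median of the mutant pair from −0.06 to 0.12, so no direction is read from a median of this size.

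**Figure D1:**
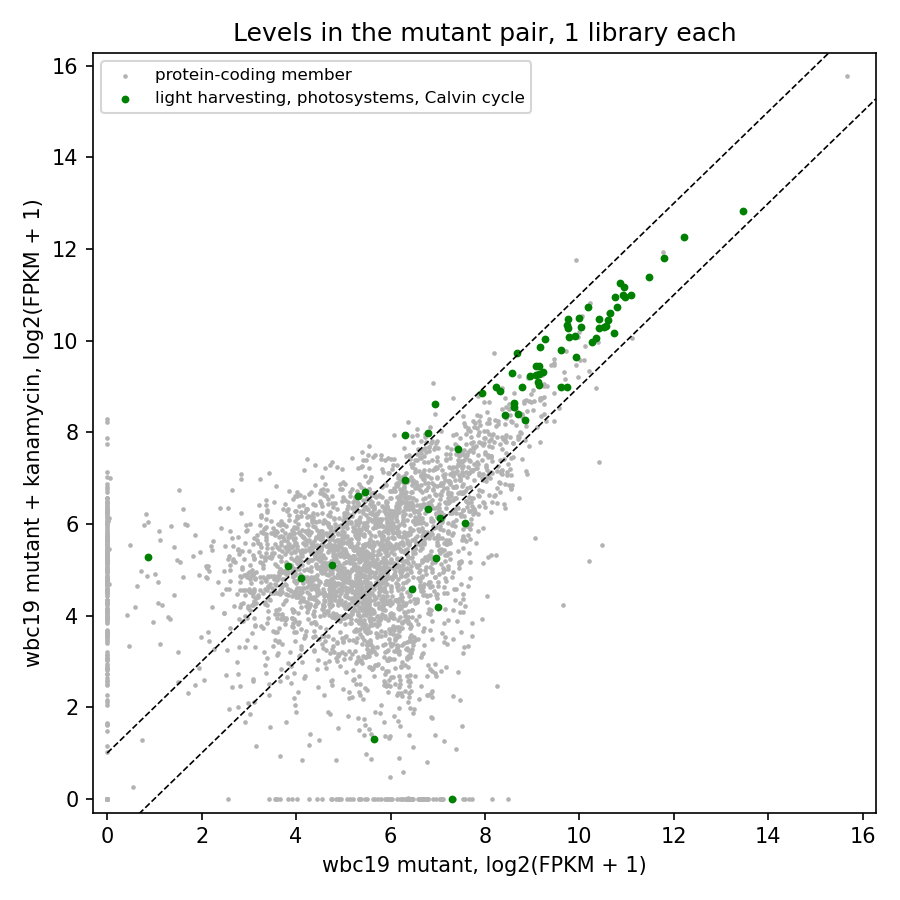
Level of each protein-coding member in the library labelled wbc19 mutant (x axis) against wbc19 mutant + kanamycin (y axis), both as log2(FPKM + 1). Dashed lines mark 2-fold differences, grey points are single genes, and green points are nuclear genes of light harvesting, photosystems I and II and the Calvin cycle, which lie mostly between the lines at the upper right while the cloud widens at low levels.

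The size of the differences depended on the level of the gene. Among protein-coding members with a mean of 20 to 50 FPKM, 60.4% of 2030 differed at least 2-fold in the mutant pair, and 55.1% in the control pair. The share was 51.9% of 724 at 50 to 100 FPKM and 31.4% of 560 at 100 to 500 FPKM. Above 500 FPKM it was 9.64% of 83, against 8.43% in the control pair. RBCS1A and CAB1, of carbon fixation and light harvesting, belong to this class. In the mutant pair the median level was 861 and 1236 FPKM over light-harvesting members and 495 and 546 FPKM over Calvin cycle members. Few differences past 2-fold in such groups are therefore not read as a trait of their function.

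**Figure D2:**
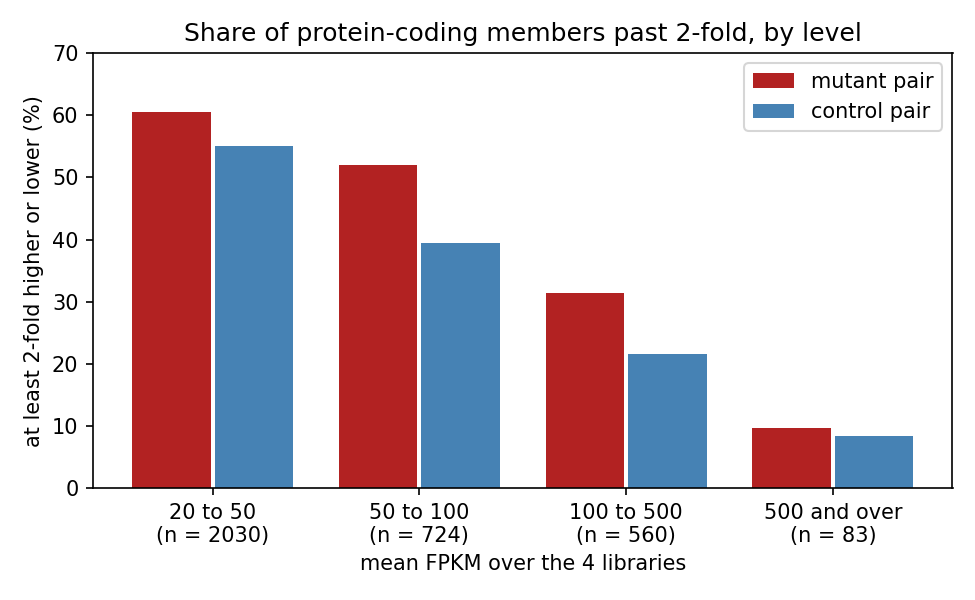
Share of protein-coding members (percent, y axis from 0) at least 2-fold higher or lower with kanamycin, by mean FPKM over the 4 libraries (x axis), for the mutant pair and the control pair, 1 library per condition. In both pairs the share falls from over 50% in the lowest class to under 10% in the highest.

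The library labelled wbc19 mutant alone was at least 2-fold below each of the other 3 for 497 members, 13.4% of all. It was at least 2-fold above them for 474 (12.8%). For wbc19 mutant + kanamycin these counts were 290 (7.83%) and 154 (4.16%). Of the 925 members higher with kanamycin, 497 were therefore low in wbc19 mutant alone and 154 were high in wbc19 mutant + kanamycin alone. Of the 1040 members lower with kanamycin, 474 were high in wbc19 mutant alone and 290 were low in wbc19 mutant + kanamycin alone. In either direction the library without kanamycin stood alone for more members than the library with it. The counts are not a split of the members, since a gene can be counted for both libraries, as RPS19 and AT1G36390 were. The filter on mean FPKM can also admit a gene through a single high library. AT1G29430 passed it at 108 FPKM in wbc19 mutant, with at most 0.75 FPKM in any other library.

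**Figure D3:**
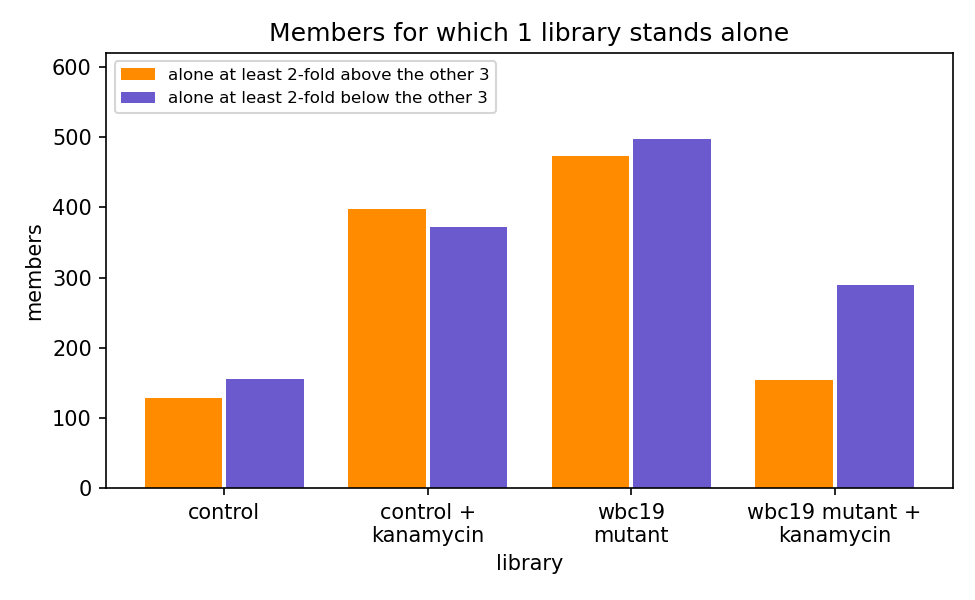
Number of members (y axis from 0) for which 1 library alone was at least 2-fold above or at least 2-fold below each of the other 3, for the 4 libraries (x axis). The library labelled wbc19 mutant stands apart for the most members in both directions, and wbc19 mutant + kanamycin stands apart downwards for 290.

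Light-harvesting chlorophyll a/b-binding proteins, which carry the antenna of both photosystems, were mostly within 2-fold in the mutant pair. Of 23 members 2 were at least 2-fold higher and 1 was lower, with a median log2 difference of 0.26, and 0.35 in the control pair. CAB1 was at 4754 and 4942 FPKM in the mutant pair and 3926 and 3996 FPKM in the control pair. LHB1B2 was at 2826 and 2699 FPKM against 1602 and 2703 FPKM in the control pair. CAB2 was at 1968 FPKM without kanamycin and 2306 FPKM with it in the mutant pair and at 1511 and 1782 FPKM in the control pair. Short reads cannot always be told apart among the near-identical LHCB1 genes, to which CAB1, CAB2 and LHB1B2 belong. The only member of the group that was lower by 2-fold was a second assembled locus of CAB2. This locus was listed at 0 in wbc19 mutant + kanamycin alone and was higher with kanamycin in the control pair. The largest difference upwards was in LHCB2.3, a gene of the photosystem II antenna, at 77.7 and 245 FPKM against 132 and 282 FPKM in the control pair, a log2 difference of 1.64 in the mutant pair and 1.08 in the control pair. In whole seedlings, fewer cells of a type and less RNA per cell cannot be told apart. LHCA5, a minor antenna protein of photosystem I that links it to the NDH complex, was at 42.8 and 102 FPKM in the mutant pair and 61.1 and 101 FPKM in the control pair.

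Subunits of photosystems I and II encoded in the nucleus were also mostly within 2-fold. Of 32 members 4 were at least 2-fold higher and 4 lower (median log2 difference 0.02). PSBP-1, of the oxygen-evolving complex, was at 1770.1 and 1707 FPKM in the mutant pair and 1309 and 1733 FPKM in the control pair. PSAD-2, on the ferredoxin side of photosystem I, was at 123 and 393 FPKM against 221 and 290.3 FPKM in the control pair, highest in wbc19 mutant + kanamycin (log2 difference 1.67). PSB28, a photosystem II assembly factor, was lowest with kanamycin in the mutant, at 124 FPKM without kanamycin and 37.1 FPKM with it in the mutant pair and at 115 and 167 FPKM in the control pair (log2 difference −1.71). The extremes of the group were PsbP family proteins of the thylakoid lumen, relatives of the oxygen-evolving subunit. AT1G76450 was at 0.832 and 38 FPKM against 50.4 and 153 FPKM in the control pair, so that the library labelled wbc19 mutant alone was low. AT4G15510 was at 49.5 and 1.47 FPKM in the mutant pair and 26.9 and 27.9 FPKM in the control pair, so that wbc19 mutant + kanamycin alone was low. AT3G05410 was at 128 and 17.3 FPKM against 1.29 and 0 FPKM in the control pair, with the library labelled wbc19 mutant far above all others.

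The Calvin cycle gave the same picture, with 2 of 17 members higher, 1 lower and a median of −0.01. RBCS1A, a small subunit of Rubisco and the most abundant member of the group, was at 11376 and 7282 FPKM in the mutant pair and 8813 and 6472 FPKM in the control pair, highest in the library labelled wbc19 mutant. RBCS3B, another small subunit, differed less, at 3566 and 3550.5 FPKM against 4049.7 and 3452 FPKM in the control pair. RCA, Rubisco activase, was at 2187 FPKM without kanamycin and 2054 FPKM with it in the mutant pair and at 2146 and 1942 FPKM in the control pair. All 4 RCA values lay within a narrow range, as did those of RBCS3B. The phosphoglycerate kinase AT1G56190 had the largest difference upwards, at 38.7 and 96.4 FPKM against 48.8 and 49.1 FPKM in the control pair (log2 difference 1.29). Of 15 genes of chlorophyll synthesis 3 were higher and 3 lower. GUN5, the H subunit of magnesium chelatase, was at 343 and 234 FPKM in the mutant pair and 204 and 258 FPKM in the control pair. GSA1, which makes 5-aminolevulinate, the first committed precursor, was at 175 and 31.7 FPKM against 73.8 and 80.8 FPKM in the control pair, lowest with kanamycin in the mutant (log2 difference −2.43). PCB2, the divinyl reductase, was at 28.0 FPKM without kanamycin and 79.5 FPKM with it in the mutant pair and at 52.1 and 5.88 FPKM in the control pair, lower with kanamycin in the control pair and higher with it in the mutant pair.

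**Figure D4:**
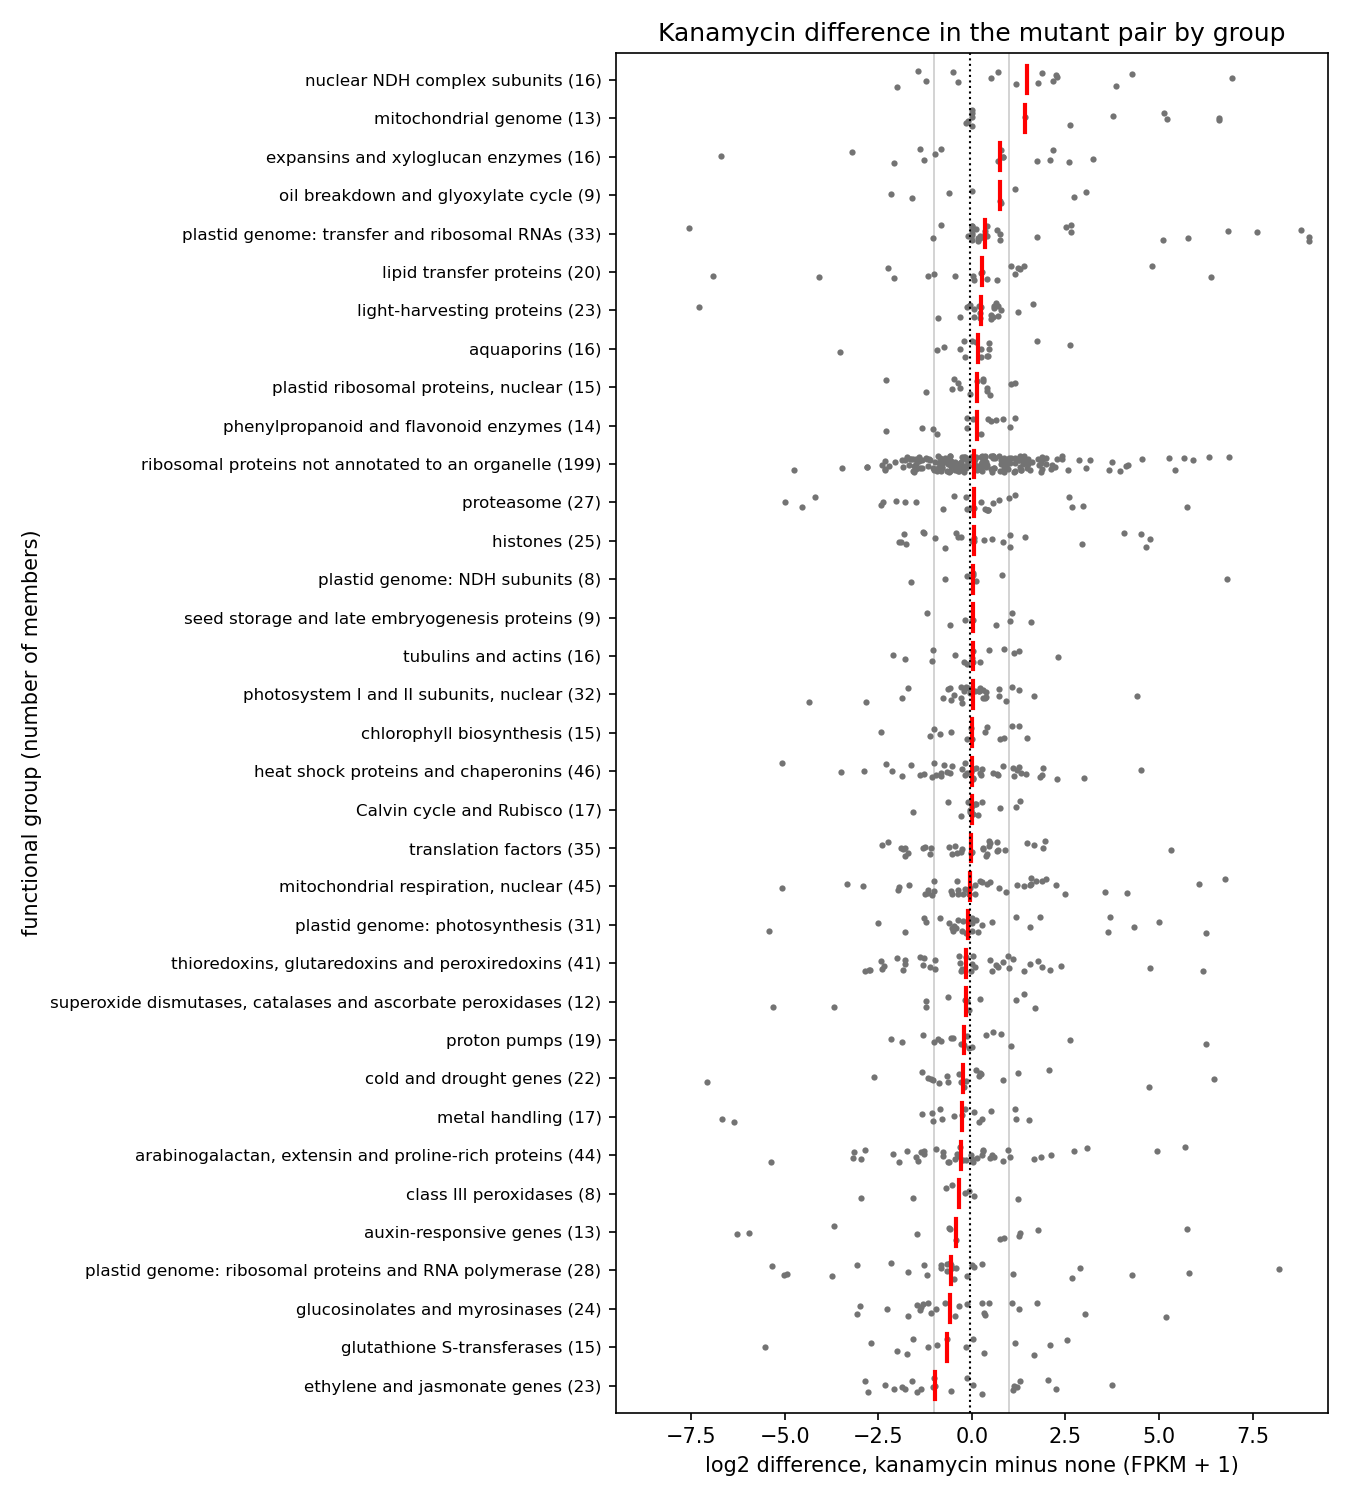
Log2 difference (kanamycin minus none, mutant pair, FPKM + 1) of every member of the 35 functional groups (1 row per group, 1 point per gene), with the group median as a red bar and the median of all members as a dotted line. Light-harvesting and Calvin cycle genes cluster near 0, the nuclear NDH subunits lie mostly to the right and the ethylene and jasmonate genes mostly to the left. Differences beyond 9 on either side are drawn at 9.

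Among the photosynthesis groups, nuclear subunits of the chloroplast NDH complex differed most between the libraries. The complex takes electrons from ferredoxin into the plastoquinone pool and works with photosystem I in cyclic electron flow. Of 16 members 9 were higher by 2-fold or more in the presence of kanamycin and 3 were lower, 56.2% against the 25% of all members, with a median log2 difference of 1.47 in the mutant pair and −0.05 in the control pair. This group was split from the photosystem subunits after its values had been seen. Its members averaged 20.6 to 89.2 FPKM, and 75% of them were past 2-fold in either direction. Among all protein-coding members the share was 60.4% at 20 to 50 FPKM and 51.9% at 50 to 100 FPKM. PnsL1, a lumenal subunit of the PsbP family (AT2G39470, chromosome 2, 16476198 to 16477843 in TAIR10.1), was at 0.0404 and 127 FPKM in the mutant pair and 48.3 and 0.016 FPKM in the control pair. Its value without kanamycin in the mutant and with it in the control line was below the level of 1 read. PnsB2, of subcomplex B, was at 2.24 and 62.1 FPKM against 24.9 and 59.7 FPKM in the control pair. PnsB1 was at 14 FPKM without kanamycin and 54.1 FPKM with it in the mutant pair and at 103 and 154 FPKM in the control pair. PnsL2, of the lumenal subcomplex, was at 13.4 and 67.1 FPKM against 59.0 and 25.1 FPKM in the control pair. In these 3 genes the library labelled wbc19 mutant was the lowest of the 4. In all, 5 of the 16 members were low in it alone, against 13.4% of all members. Without those 5 genes the median of the remaining 11 was 0.52. PnsB4 differed from them, at 24.7 and 85.8 FPKM in the mutant pair and 29.2 and 36 FPKM in the control pair, since the other 3 libraries were close together and wbc19 mutant + kanamycin stood above. NdhN, of the stromal arm, was at 12.8 and 61.2 FPKM against 26.7 and 47.6 FPKM in the control pair. The lower members included NdhS, which forms the ferredoxin-binding site, at 7.89 FPKM without kanamycin and 1.21 FPKM with it in the mutant pair and at 29.8 and 45.4 FPKM in the control pair. NdhM was at 14.5 and 5.70 FPKM against 63.8 and 68.4 FPKM in the control pair, and NdhU was at 115 and 41.5 FPKM against 62.8 and 19.6 FPKM in the control pair. NdhS and NdhM were both lowest with kanamycin in the mutant, whereas NdhU was highest in the library labelled wbc19 mutant.

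Genes of the plastid genome itself showed no shared direction. The libraries were made from poly(A) RNA, which plastid and mitochondrial transcripts mostly lack, and how much of them passed the selection in each library is not known. Of 31 photosynthesis genes 8 were higher and 5 lower with kanamycin in the mutant pair (median −0.09), and 5 and 11 in the control pair. PSBA, the D1 protein of photosystem II, was at 3491 and 3936 FPKM in the mutant pair and 2573 and 3429 FPKM in the control pair. RBCL, the large subunit of Rubisco, was at 1480.4 and 1259.7 FPKM against 1530.2 and 1307 FPKM in the control pair. PSBM, a small photosystem II subunit, was at 975 FPKM without kanamycin and 3467 FPKM with it in the mutant pair and at 786 and 1342 FPKM in the control pair, more than 2-fold above each of the other libraries (log2 difference 1.83). PSBJ, another small subunit of photosystem II, was at 809.6 and 17.9 FPKM against 173 and 120.3 FPKM in the control pair, high in the library labelled wbc19 mutant and low with kanamycin (log2 difference −5.42). ATPI, of the ATP synthase, was at 9.78 and 138 FPKM in the mutant pair and 71.2 and 33.2 FPKM in the control pair, with the library labelled wbc19 mutant lowest. Of 8 NDH genes of the plastid, 1 was higher and 1 lower. PSBG, which despite its name encodes an NDH subunit, was at 185 and 326 FPKM against 192 and 430.5 FPKM in the control pair. NDHC, the lower of the group, was at 255 and 81.6 FPKM against 96.9 and 451 FPKM in the control pair, and NDHG, the higher, was listed at 0 in wbc19 mutant, at 0 and 111 FPKM against 124 and 29.1 FPKM in the control pair.

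Ribosomal protein and RNA polymerase genes of the plastid lay in both directions, with 6 of 28 higher, 9 lower and a median of −0.57, against −0.20 in the control pair. The lower genes included neighbours of 1 ribosomal protein cluster of the plastid, which was picked out after its values were seen. RPS19 was at 1428 and 45.6 FPKM in the mutant pair and 607 and 220.2 FPKM in the control pair. RPS3 was at 206 and 62.8 FPKM against 241 and 368 FPKM in the control pair, and RPL16 was at 418 and 93.6 FPKM against 255 and 285 FPKM in the control pair. For both, the 3 other libraries lay within 2-fold of each other. RPL14 was at 1371 and 163 FPKM against 514 and 435 FPKM in the control pair, and RPL36 was at 1181 and 35.5 FPKM against 156 and 0 FPKM in the control pair. RPL2.1, also of the cluster, was at 70.003 and 84.4 FPKM against 159 and 145 FPKM in the control pair. Such neighbours are known to be transcribed together, so a read near a border may belong to either gene. Outside the cluster, RPL32 was at 475 and 352 FPKM against 713 and 2373 FPKM in the control pair, highest in control + kanamycin, and RPS14 was level, at 841 and 869 FPKM against 859.7 and 742 FPKM in the control pair. RPOB, a core subunit of the plastid RNA polymerase, was at 71.7 and 4.42 FPKM against 31.6 and 14.6 FPKM in the control pair, while RPOC1, encoded beside it, was at 4.88 and 36.7 FPKM against 21.6 and 77.8 FPKM in the control pair.

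Transfer RNA genes separated the libraries in another way. Over all 131 tRNA members, nuclear and organellar, 88 were higher and 3 lower with kanamycin in the mutant pair, whereas 3 were higher and 82 lower in the control pair. Their median level was 85.8 FPKM in the control library, 89.9 FPKM in wbc19 mutant + kanamycin, 6.42 FPKM in control + kanamycin and 0 in the library labelled wbc19 mutant, where 81 were listed at 0. Control and wbc19 mutant + kanamycin also had the most genes above 0 and the highest Spearman correlation of any pair, 0.618. Whether this split of the libraries has a part in the differences of other genes was not tested. Among the 33 plastid tRNA and rRNA genes 11 were higher and 2 lower. The 16S ribosomal RNA, to which kanamycin binds in bacteria, was at 29026 and 32639.7 FPKM against 32902 and 27277 FPKM in the control pair for the first of its copies, and the 23S RNA was at 27005 and 31182 FPKM against 30934 and 26612 FPKM in the control pair. Both were nearly level. TRNK, a lysine tRNA, was at 0 and 1832 FPKM in the mutant pair and 211 and 0 FPKM in the control pair. TRNC, a cysteine tRNA, was listed above 0 in the library labelled wbc19 mutant alone, at 187 and 0 FPKM against 0 and 0 FPKM in the control pair.

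Of 13 members from the mitochondrial genome 7 were at least 2-fold higher with kanamycin in the mutant pair and 0 lower, but 6 stood at 0 in the library labelled wbc19 mutant. The median was 1.43 with these and 0.01 over the 7 members above 0 in both libraries. The ribosomal RNAs were level, with RRN18 at 2462 and 2276 FPKM in the mutant pair and 3354 and 2994 FPKM in the control pair. ATP9, a subunit of the mitochondrial ATP synthase, was at 4.91 and 80.5 FPKM against 71.8 and 71.0 FPKM in the control pair, and ATP1 was at 7.39 and 21.6 FPKM against 47.5 and 47.3 FPKM in the control pair. In both, the library labelled wbc19 mutant alone was low and the other 3 were closer together. NAD5C, an exon locus of complex I, was at 1.85 and 106 FPKM against 18.9 and 0 FPKM in the control pair.

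Ribosomal proteins encoded in the nucleus were examined by the compartment their description names. Of 15 proteins of the plastid ribosome 2 were higher and 2 lower (median 0.15). PSRP5 was at 199.7 and 263 FPKM in the mutant pair and 335 and 249 FPKM in the control pair. RPS9 differed most downwards, at 178 and 35.6 FPKM against 167 and 225 FPKM in the control pair, where the 3 other libraries were close and wbc19 mutant + kanamycin was low (log2 difference −2.29). PSRP3/1 was at 78.7 FPKM without kanamycin and 177 FPKM with it in the mutant pair and at 218 and 174 FPKM in the control pair, where the library labelled wbc19 mutant was low instead. Of 199 ribosomal proteins whose description names no organelle, 56 were higher and 37 were lower, the median being 0.07 in the mutant pair and −0.18 in the control pair. A description may leave out the organelle, so the 199 are not read as cytosolic, nor the 15 as the whole plastid set. In 42 of the 199 the library labelled wbc19 mutant alone was low, against 13.4% of all members. AT5G02960, of the S12/S23 family, was at 351 and 139 FPKM against 443 and 339 FPKM in the control pair, and STV1, the cytosolic L24 known for its role in translating auxin response factors, was at 325 and 142 FPKM against 379 and 289 FPKM in the control pair. Both were lower with kanamycin in the mutant than in any other library. AT5G57290, a 60S acidic ribosomal protein, was at 8.39 and 124 FPKM against 16.2 and 12.9 FPKM in the control pair, the reverse case (log2 difference 3.74).

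Of 35 translation factors 5 were higher and 11 lower, and the lower share of 31.4% was close to the 28.1% of all members (median −0.01). AT5G60390, an elongation factor 1-alpha, was at 373 and 370.0 FPKM against 459 and 347 FPKM in the control pair, and FBR12, a translation factor 5A, was at 337 and 336 FPKM against 518 and 291 FPKM in the control pair. EIF4A1, the RNA helicase of cap-dependent initiation, was at 279.7 and 75.1 FPKM against 142 and 209 FPKM in the control pair, and EIF4E, the cap-binding protein, was at 80.5 and 21.9 FPKM against 20.8 and 6.88 FPKM in the control pair. The library labelled wbc19 mutant was the highest of the 4 for both. TIF3B1, a subunit of initiation factor 3, was at 72.9 and 14.8 FPKM in the mutant pair and 36.7 and 40.3 FPKM in the control pair, and wbc19 mutant + kanamycin was its lowest. ELF5A-3 was higher with kanamycin in both lines, at 38.7 and 148 FPKM against 21.7 and 253 FPKM in the control pair.

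Glutathione S-transferases, which conjugate glutathione to foreign compounds and to products of oxidative stress, differed in both directions. Of 15 members 4 were higher and 6 lower with kanamycin in the mutant pair, which is 66.7% past 2-fold against 53.1% of all members, while 6 were higher and 0 lower in the control pair. The medians were −0.67 and 0.24. The 250 bases before the annotated start (RefSeq, TAIR10.1, minus strand, 5′ to 3′) are shown for the members with the largest differences upwards, GSTU7 and GSTU5, and for GSTF2, low in wbc19 mutant + kanamycin alone. The as-1 element, through which several genes of this family are known to be induced, has the core TGACG, and capitals mark TGACG and its complement CGTCA, with overlapping matches merged.
GSTU7: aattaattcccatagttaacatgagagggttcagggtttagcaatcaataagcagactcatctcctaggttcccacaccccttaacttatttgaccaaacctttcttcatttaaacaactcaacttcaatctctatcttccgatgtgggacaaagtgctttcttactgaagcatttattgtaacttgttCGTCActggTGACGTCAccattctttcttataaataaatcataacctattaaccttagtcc
GSTU5: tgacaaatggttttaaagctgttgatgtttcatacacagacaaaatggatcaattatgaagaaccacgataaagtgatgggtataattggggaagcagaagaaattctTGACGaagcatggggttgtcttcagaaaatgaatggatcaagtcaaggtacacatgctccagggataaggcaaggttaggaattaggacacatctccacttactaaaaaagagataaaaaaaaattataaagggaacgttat
GSTF2: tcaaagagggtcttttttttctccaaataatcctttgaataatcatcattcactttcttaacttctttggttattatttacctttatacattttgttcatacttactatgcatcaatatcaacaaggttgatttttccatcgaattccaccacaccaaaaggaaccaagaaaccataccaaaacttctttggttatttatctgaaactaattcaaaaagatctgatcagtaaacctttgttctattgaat

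These windows lie at chr2:12618900-12619149 for GSTU7 (AT2G29420), chr2:12625791-12626040 for GSTU5 (AT2G29450) and chr4:1112034-1112283 for GSTF2 (AT4G02520). The GSTU5 window overlaps the annotated locus AT2G29452. GSTU7 held 3 matches, the first 61 bases before the start, GSTU5 held 1, and GSTF2 held 0. TGACG stood on either strand in 5 of the 15 glutathione S-transferase members (33.3%). It stood in 20.5% of the windows of the 3312 nuclear protein-coding members and in 18.6% of those of all 27443 nuclear protein-coding genes. The window of GSTF6, which had the largest difference downwards, is not among those shown. A match describes these letters only.

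GSTU7, of the tau class, was at 16.0 and 98.4 FPKM in the mutant pair and 5.34 and 12.9 FPKM in the control pair, from about 15 and 52 reads in the mutant pair. GSTU5 was at 17.1 and 76.1 FPKM against 28.7 and 16.0 FPKM in the control pair. For both genes wbc19 mutant + kanamycin was the highest library by more than 2-fold, and for GSTU5 the other 3 lay within 2-fold of each other. Members of the phi class were lower or level. GSTF6, a stress-responsive member, was at 121 FPKM without kanamycin and 1.65 FPKM with it in the mutant pair and at 62.4 and 42.6 FPKM in the control pair, from about 158 and 1 reads in the mutant pair, and had the largest difference of the family (log2 −5.53). GSTF2, an auxin-binding member, was at 97.6 and 23.6 FPKM against 105 and 68.2 FPKM in the control pair. GSTF9, level in the mutant pair, was at 176 and 180.1 FPKM in the mutant pair and 347 and 201 FPKM in the control pair. GSTF8 was at 149 and 49.6 FPKM against 0 and 52.2 FPKM in the control pair, with the library labelled control alone at 0. GSTF10 was at 198 FPKM without kanamycin and 87.4 FPKM with it in the mutant pair and at 147 and 150.03 FPKM in the control pair, lower with kanamycin in the mutant pair alone. The tau class did not share a direction, since GSTU13 and GSTU24 were lower where GSTU5 and GSTU7 were higher. GSTU13 was at 46.3 and 6.38 FPKM against 23.6 and 74.7 FPKM in the control pair. GSTU24 was at 119 and 35.3 FPKM in the mutant pair and 14.1 and 24.2 FPKM in the control pair, with the library labelled wbc19 mutant alone high. GSTU20 was at 69.0 and 155 FPKM against 241 and 159.6 FPKM in the control pair, with the same library alone low. GSTF and GSTU genes in tandem arrays are similar in sequence, and their reads may be split among copies.

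**Figure D5:**
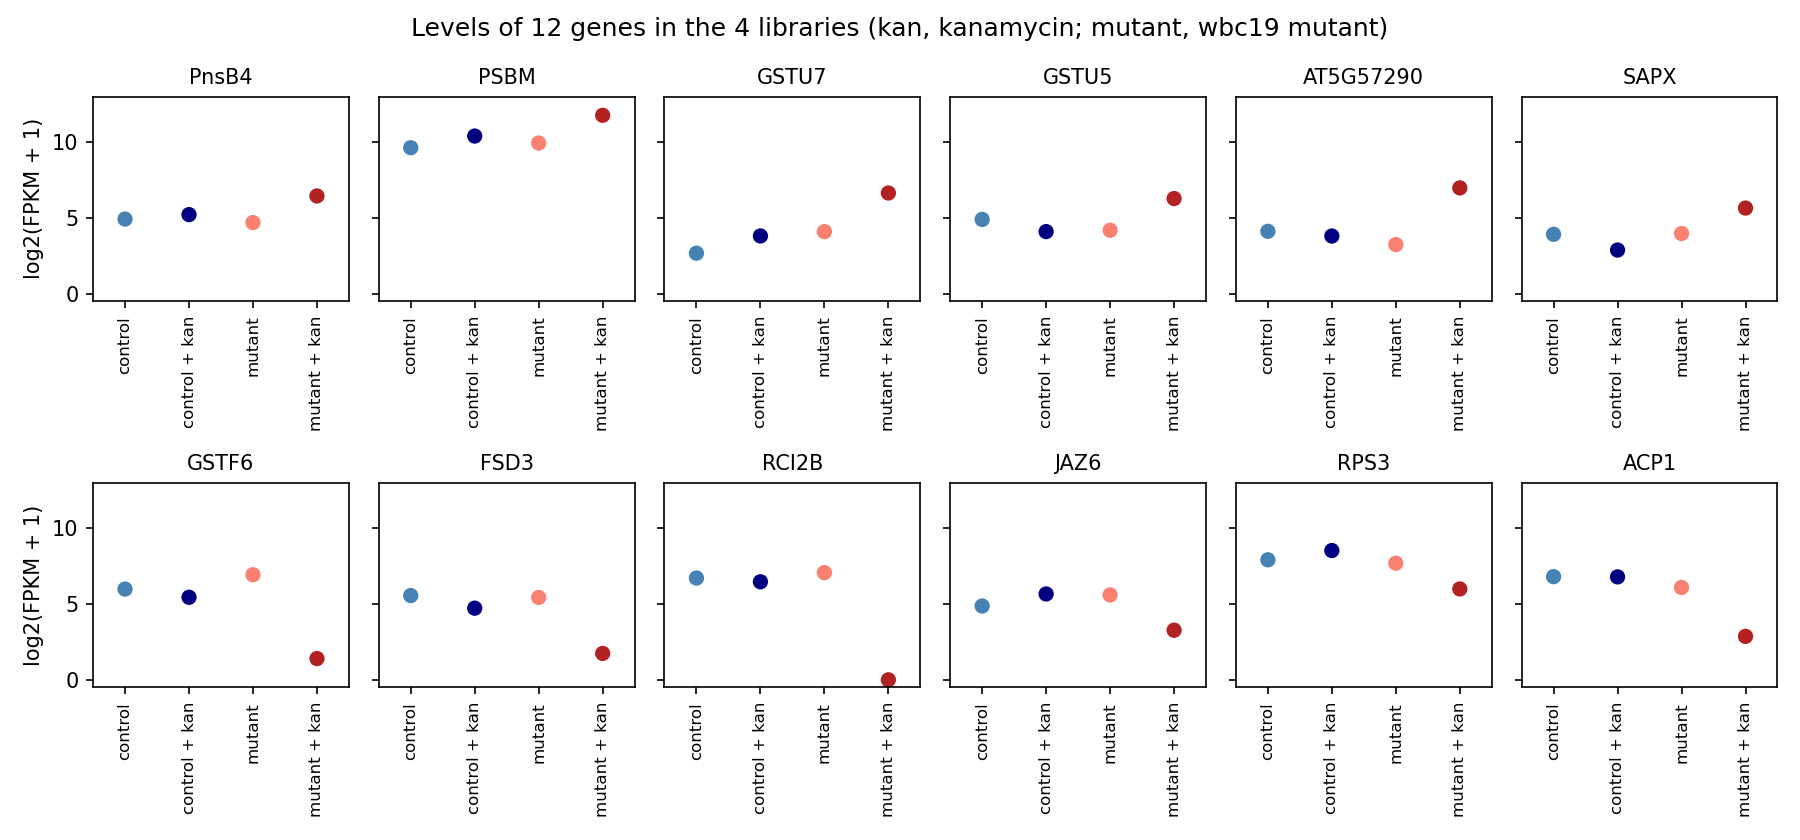
Level (log2(FPKM + 1), y axis) of 12 genes in the 4 libraries, 1 point per library and 1 panel per gene. The top row shows genes for which wbc19 mutant + kanamycin was the highest library (PnsB4, PSBM, GSTU7, GSTU5, AT5G57290 and SAPX), and the bottom row genes for which it was the lowest (GSTF6, FSD3, RCI2B, JAZ6, RPS3 and ACP1).

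Enzymes that remove superoxide and peroxide split by gene as well. Of 12 members 3 were higher and 4 lower (median −0.16). FSD1, the abundant iron superoxide dismutase, was at 607 and 391 FPKM in the mutant pair and 416 and 331 FPKM in the control pair. FSD3, an iron enzyme of the plastid nucleoid needed for plastid gene expression, was at 42.2 and 2.34 FPKM against 46.1 and 25.5 FPKM in the control pair, low with kanamycin in the mutant alone (log2 difference −3.69). CSD2, the plastid copper/zinc enzyme, was at 39.0 FPKM without kanamycin and 0 FPKM with it in the mutant pair and at 10.5 and 55.4 FPKM in the control pair. CSD1, the cytosolic one, was lower with kanamycin in both lines, at 34.7 and 14.2 FPKM against 32.0 and 5.87 FPKM in the control pair. SAPX, an ascorbate peroxidase of the stroma and of mitochondria, was at 14.6 and 48.9 FPKM in the mutant pair and 14 and 6.32 FPKM in the control pair, its highest with kanamycin in the mutant. TAPX, of the thylakoid, was higher with kanamycin in both lines, at 7.54 and 21.5 FPKM against 20.8 and 66.1 FPKM in the control pair. CAT3, a catalase, was level, at 191 FPKM without kanamycin and 182 FPKM with it in the mutant pair and at 200.4 and 131 FPKM in the control pair. Of 41 thioredoxins, glutaredoxins and peroxiredoxins 9 were higher and 14 lower (median −0.15). The 2-Cys peroxiredoxin AT3G11630 was at 548 and 275 FPKM against 397 and 371 FPKM in the control pair. PRXQ, another peroxiredoxin of the plastid, was at 280.0 and 140.0 FPKM in the mutant pair and 273 and 81.9 FPKM in the control pair. TRX3, a cytosolic thioredoxin, was at 376 and 172 FPKM against 275 and 248 FPKM in the control pair. For AT3G11630 and TRX3 wbc19 mutant + kanamycin was the lowest library. Class III peroxidases of the cell wall numbered 8, with 1 higher and 2 lower, and PRXR1 was at 215 FPKM without kanamycin and 205 FPKM with it in the mutant pair and at 309 and 205 FPKM in the control pair.

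Genes that bind or move metals showed no shared direction. Of 17 members 3 were higher and 5 lower with kanamycin in the mutant pair (median −0.25), and 5 and 3 in the control pair. Metallothioneins are small cysteine-rich proteins that bind copper and zinc. MT1A was at 2216 and 1065 FPKM against 922 and 1358 FPKM in the control pair, and MT1B was at 754 and 367 FPKM against 223 and 505 FPKM in the control pair. Both were highest in the library labelled wbc19 mutant and at least 2-fold lower with kanamycin, although after upper-quartile scaling the log2 differences were −0.82 and −0.80, within 2-fold. MT2B, of another type, was within 2-fold, at 1020.0 and 1173 FPKM against 1411 and 1522 FPKM in the control pair, and so was MT3, at 212 and 305 FPKM against 351 and 322 FPKM in the control pair. ZIP1, a zinc transporter, was at 101 and 0 FPKM in the mutant pair and 0.913 and 15.7 FPKM in the control pair. The library labelled wbc19 mutant alone was high, and the value in the control library was below the level of a single read. FRO6, a ferric reductase of leaf cells, was at 25.5 and 75.6 FPKM against 9.91 and 7.18 FPKM in the control pair. FRO6 was higher in both libraries of the mutant pair than in the control pair, and within the mutant pair higher with kanamycin (log2 difference 1.53). NAS1, which makes the metal chelator nicotianamine, was at 0 FPKM without kanamycin and 1.24 FPKM with it in the mutant pair and at 48.9 and 46.1 FPKM in the control pair, below both control libraries in each library of the mutant pair. NFS1, the mitochondrial cysteine desulfurase that supplies iron-sulfur clusters, was lowest with kanamycin in the mutant, at 25.5 and 8.13 FPKM against 36.8 and 18.2 FPKM in the control pair.

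Cell wall genes differed in both directions. Of 16 expansins and xyloglucan enzymes 5 were higher and 5 lower, 62.5% past 2-fold, with a median of 0.75. The sign of this median turned with the filter, to −0.91 over the 6 averaging 50 FPKM or more and −0.82 over the 13 with a mean of 20 FPKM in the mutant pair. Expansins loosen the wall during growth. EXPA1 was at 25.9 and 161 FPKM against 102 and 26.0 FPKM in the control pair, and EXPA10 was at 15.3 and 71.6 FPKM against 21.7 and 0 FPKM in the control pair. Both were higher with kanamycin in the mutant pair and lower with it in the control pair. EXP3 was at 2.03 and 27.9 FPKM in the mutant pair and 33.9 and 52.6 FPKM in the control pair, with the library labelled wbc19 mutant alone low. EXPA11 went the other way, at 99.7 and 23.0 FPKM against 13.7 and 0 FPKM in the control pair. XTH4, a xyloglucan endotransglucosylase, was at 247 and 123 FPKM against 143 and 247 FPKM in the control pair, and XTR6 was at 103 and 0 FPKM against 24.6 and 59.7 FPKM in the control pair. For XTR6 wbc19 mutant + kanamycin alone was listed at 0. Of 44 arabinogalactan, extensin and proline-rich proteins 8 were higher and 13 lower (median −0.28). EXT3, the extensin that forms the scaffold of the wall, was at 328 FPKM without kanamycin and 239 FPKM with it in the mutant pair and at 389 and 235 FPKM in the control pair. AGP2, an arabinogalactan protein, was at 184 and 19.7 FPKM against 29.1 and 37.7 FPKM in the control pair, and WIH2 was at 113 and 11.9 FPKM against 27.2 and 16.4 FPKM in the control pair. In AGP2 and WIH2 the library labelled wbc19 mutant alone was high. Among 13 auxin-responsive genes 4 were higher and 4 were lower, the median being −0.43 in the mutant pair and 0.98 in the control pair. The median of the mutant pair also changed sign with the filter, to between 0.21 and 1.28 under 4 other filters, so the opposite medians are not read as a contrast. IAA9, a repressor of auxin responses, was at 247 and 88.7 FPKM against 54.9 and 106 FPKM in the control pair, highest in the library labelled wbc19 mutant. IAA8, of the same family, was at 19.2 and 68.0 FPKM in the mutant pair and 50.1 and 99.8 FPKM in the control pair, lowest in that library. SAUR genes are early targets of auxin. SAUR75 was at 165 and 1.13 FPKM against 0 and 8.31 FPKM in the control pair, and the SAUR gene AT1G29430 was at 108 and 0.75 FPKM against 0 and 0 FPKM in the control pair, so that the library labelled wbc19 mutant stood above the rest. The SAUR gene AT4G38840 was at 0 and 52.8 FPKM against 45.8 and 64.0 FPKM in the control pair, the opposite case.

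Among genes of ethylene and jasmonate signalling more members were lower than higher in the mutant pair, which depended on the filter on FPKM. Of 23 members 7 were higher and 11 lower, 47.8% lower against the 28.1% of all members, with a median log2 difference of −0.996. The median was 0.01 over the 58 of the group averaging 5 FPKM or more and 0.03 over 93 without a filter, so its direction ended with these filters. In the control pair 8 were higher and 3 were lower, the median being 0.83. JAZ proteins repress jasmonate responses and are themselves induced by the hormone. JAZ10 was lower with kanamycin in both lines, at 66.7 and 8.36 FPKM in the mutant pair and 15.3 and 0 FPKM in the control pair. JAZ6 was at 47.6 and 8.68 FPKM against 28.2 and 49.7 FPKM in the control pair. For JAZ6 wbc19 mutant + kanamycin was below the other 3 libraries, which lay within 2-fold of each other, and the same held for LOX2, the plastid lipoxygenase of jasmonate synthesis, at 69.5 FPKM without kanamycin and 33.7 FPKM with it in the mutant pair and at 98.3 and 90.4 FPKM in the control pair. MYC3, a transcription factor that JAZ proteins bind, was at 32.2 and 15.2 FPKM against 12.4 and 36.3 FPKM in the control pair. The ethylene response factor ERF-1 was at 42.8 and 11.7 FPKM in the mutant pair and 21.3 and 38.7 FPKM in the control pair. RAP2.2, of the same family, was at 138 and 31.7 FPKM against 42.5 and 38.8 FPKM in the control pair. Higher members included AOC2, allene oxide cyclase of jasmonate synthesis, at 1.79 FPKM without kanamycin and 36.2 FPKM with it in the mutant pair and at 95.4 and 32.7 FPKM in the control pair. EIN3, the central transcription factor of ethylene signalling, was at 7.45 and 39.3 FPKM against 28.4 and 35 FPKM in the control pair, and its relative EIL1 was at 16.4 and 41.5 FPKM against 29.6 and 70.6 FPKM in the control pair. In these 3 genes the library labelled wbc19 mutant was the lowest.

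Of 22 genes named for cold or drought 4 were higher and 6 lower with kanamycin in the mutant pair (median −0.25). RCI2B and RCI2A are small membrane proteins of 1 family whose differences had opposite directions. RCI2B was at 134 and 0 FPKM in the mutant pair and 104 and 87.6 FPKM in the control pair. RCI2A was at 0 and 87.2 FPKM against 41.4 and 162 FPKM in the control pair. Each was listed at 0 in 1 library of the mutant pair, RCI2B with kanamycin and RCI2A without it. COR413-PM1, a membrane protein induced by cold, was at 2.06 FPKM without kanamycin and 79.7 FPKM with it in the mutant pair and at 51.3 and 53.0 FPKM in the control pair, where wbc19 mutant alone was low. ERD6, a sugar transporter, was at 45.6 and 17.4 FPKM against 78.0 and 67.8 FPKM in the control pair, lowest with kanamycin in the mutant. SAG21, a late embryogenesis-like protein of mitochondria that is induced by oxidants, was at 700.3 and 302 FPKM in the mutant pair and 772 and 702 FPKM in the control pair, also lowest there (log2 difference −1.21).

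Glucosinolates are defence compounds that myrosinases cleave. Of 24 members of this group 5 were higher and 10 lower (median −0.58, and −0.25 in the control pair). PYK10, a root and hypocotyl beta-glucosidase of ER bodies and the most abundant, was at 1299 and 496 FPKM in the mutant pair and 910.4 and 605 FPKM in the control pair. PBP1, which binds PYK10, was at 381 and 297 FPKM against 446 and 299.7 FPKM in the control pair. TGG1, a leaf myrosinase, was at 573 FPKM without kanamycin and 415 FPKM with it in the mutant pair and at 206 and 325 FPKM in the control pair, higher in both libraries of the mutant pair than in the control pair. UGT74B1, which adds the glucose of glucosinolates, was at 84.9 and 9.85 FPKM against 27.1 and 50.6 FPKM in the control pair. IGMT4, a methyltransferase of indole glucosinolates, was at 78.1 and 15.5 FPKM in the mutant pair and 56.0 and 105 FPKM in the control pair. Both were lowest with kanamycin in the mutant. The sulfotransferases of the last step differed in direction. SOT16 was at 62.0 and 18.5 FPKM against 15.8 and 6.07 FPKM in the control pair, and SOT18 was at 13.3 and 46.6 FPKM against 14.1 and 12.4 FPKM in the control pair. CYP83A1, of aliphatic glucosinolates, was higher with kanamycin, at 6.67 and 61.6 FPKM against 53.1 and 17.7 FPKM in the control pair, and CYP83B1, of indole glucosinolates, was lower, at 33.0 and 14.9 FPKM against 24.7 and 11.7 FPKM in the control pair.

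Nuclear genes of mitochondrial respiration were spread widely, with 14 of 45 higher and 12 lower in the mutant pair (median −0.04), against 6 and 20 in the control pair (median −0.83). AT4G37830, a cytochrome oxidase subunit, was at 145 and 204 FPKM in the mutant pair and 213 and 97.0 FPKM in the control pair. ATPQ, of the ATP synthase, was at 161 and 111 FPKM against 152 and 182 FPKM in the control pair. AT4G32470, of complex III, was at 107 FPKM without kanamycin and 32.6 FPKM with it in the mutant pair and at 142 and 193 FPKM in the control pair, lowest with kanamycin in the mutant. AT2G47690, of complex I, was at 13.3 and 79.5 FPKM against 24.2 and 22.4 FPKM in the control pair, high there alone. COX17, a copper chaperone of cytochrome oxidase, was listed at 0 with kanamycin in the mutant pair, at 32.6 and 0 FPKM in the mutant pair and 34.2 and 143 FPKM in the control pair.

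Proteasome subunits numbered 27, with 5 higher, 8 lower and a median of 0.05, which was −1.50 over the 7 averaging 50 FPKM or more. Subunits that are present in equal number in the complex differed from each other. PAF1, of the core, was at 211 and 10.7 FPKM in the mutant pair and 8.45 and 57.7 FPKM in the control pair, highest in the library labelled wbc19 mutant. PBE1, also of the core, was at 41.0 and 6.83 FPKM against 55.1 and 35.7 FPKM in the control pair, lowest with kanamycin in the mutant. RPT6A, of the regulatory particle, was at 3.39 FPKM without kanamycin and 33.1 FPKM with it in the mutant pair and at 29.996 and 77.2 FPKM in the control pair, lowest in the library labelled wbc19 mutant. Heat shock proteins and chaperonins were balanced, with 12 of 46 higher and 10 lower. HSC70-1 was at 272 and 403 FPKM against 382 and 423 FPKM in the control pair. CPN20, a co-chaperonin that helps to fold proteins in the plastid, was at 573 and 219 FPKM in the mutant pair and 331 and 226 FPKM in the control pair. Its partner CPN60A was at 147 and 93.3 FPKM against 178 and 126 FPKM in the control pair. Subunits of the cytosolic chaperonin differed in direction. AT3G18190 was at 100.4 and 7.99 FPKM against 16.5 and 6.33 FPKM in the control pair, and AT5G20890 was at 11.4 and 42.7 FPKM against 63.7 and 85.1 FPKM in the control pair.

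Histones numbered 25, with 8 higher and 6 lower (median 0.05). HTA9, an H2A.Z variant, was at 306 and 86.7 FPKM in the mutant pair and 83.9 and 62.0 FPKM in the control pair, highest in the library labelled wbc19 mutant. Many histone genes code for the same protein and share reads. Of 16 tubulins and actins 3 were higher and 4 lower. ACT2, often used as a reference, was at 173 and 178 FPKM against 192 and 202 FPKM in the control pair, and TUB6 was at 110.2 and 24.9 FPKM against 58.7 and 101 FPKM in the control pair. Aquaporins were among the most even groups, with 2 of 16 higher and 1 lower (median 0.17). PIP1B was at 237 and 325 FPKM against 300.3 and 240.4 FPKM in the control pair. PIP1;4, with the largest difference, was at 23.3 FPKM without kanamycin and 149 FPKM with it in the mutant pair and at 63.1 and 82.0 FPKM in the control pair.

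Of 20 lipid transfer proteins 7 were higher and 6 lower. LP1 was level, at 676 and 709 FPKM in the mutant pair and 550.3 and 477 FPKM in the control pair, while LTP2 and EARLI1 were lowest with kanamycin in the mutant. LTP2 was at 167 and 74.1 FPKM against 218 and 229.6 FPKM in the control pair. EARLI1, a cold-induced member, was at 102 FPKM without kanamycin and 20.8 FPKM with it in the mutant pair and at 130.0 and 115 FPKM in the control pair. Proton pumps gave 3 higher and 4 lower of 19, and TUF, a subunit of the vacuolar ATPase, was at 204 and 194 FPKM against 91.6 and 122 FPKM in the control pair. Phenylpropanoid and flavonoid enzymes gave 2 and 3 of 14, and OMT1 was at 126 and 129 FPKM in the mutant pair and 121 and 79.9 FPKM in the control pair. Genes that use seed oil gave 3 and 2 of 9. PMDH2, the peroxisomal malate dehydrogenase, was level in the mutant pair, at 364 and 365 FPKM against 271 and 510.3 FPKM in the control pair, and PCK1, of gluconeogenesis, was at 136 and 29.999 FPKM against 45.8 and 35.9 FPKM in the control pair. Seed and late embryogenesis proteins gave 3 and 1 of 9, among them AT1G54410, a dehydrin, at 311 and 483 FPKM against 478 and 689 FPKM in the control pair.

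The largest differences of all were in genes of no single function, and most rested on the library labelled wbc19 mutant. Among members above 0 in both libraries, the largest differences upwards after PnsL1 were in ALDH11A3, a cytosolic glyceraldehyde-3-phosphate dehydrogenase, at 0.031 and 68.9 FPKM in the mutant pair and 26.7 and 0.0374 FPKM in the control pair. ASP5, a plastid aspartate aminotransferase, was at 0.00529 and 66.7 FPKM against 80.5 and 55.3 FPKM in the control pair. The RNA helicase emb1138 of the plastid was at 0.00763 and 65.8 FPKM against 98.7 and 88.5 FPKM in the control pair, and FdC2, a ferredoxin-like protein, was at 0.00255 and 38.7 FPKM against 59.2 and 26.5 FPKM in the control pair. In each of these the library labelled wbc19 mutant was below the level of 1 read. The co-chaperone AT1G36390 was at 0.778 FPKM without kanamycin and 73.9 FPKM with it in the mutant pair and at 27.2 and 24.7 FPKM in the control pair. The plastid protein CDF1 was at 0.815 and 64.6 FPKM against 61.8 and 146 FPKM in the control pair. Downwards, NMT1, an N-myristoyltransferase, was at 81.8 and 0.0153 FPKM in the mutant pair and 9.31 and 3.38 FPKM in the control pair. ER (AT5G10810), a homologue of enhancer of rudimentary, was at 303 and 4.51 FPKM against 34.1 and 1.06 FPKM in the control pair. SRG3, a glycerophosphodiester phosphodiesterase, was at 178 FPKM without kanamycin and 3.46 FPKM with it in the mutant pair and at 23.9 and 6.87 FPKM in the control pair. In these 3 genes wbc19 mutant was the highest library. ECA2, a calcium pump, was at 62.8 and 0.399 FPKM against 3.36 and 21.5 FPKM in the control pair, and AL3, a PHD protein, at 87.7 and 1.18 FPKM against 13.6 and 45.0 FPKM in the control pair.

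A further 280 members were listed at 0 in wbc19 mutant and above 0 with kanamycin, and 123 the other way round. The highest of these, and the members with the highest means of all, were assembled loci without a gene name or very short RNAs, for which FPKM divides few reads by a very small length. XLOC_032957 reached 11869700 FPKM in wbc19 mutant and was at 0 in the other 3 libraries. The snoRNA AT5G13225 was at 0 and 503 FPKM in the mutant pair and 92.9 and 0 FPKM in the control pair. The assembled loci without a gene name and this snoRNA are in none of the groups, whereas TRNK is among the plastid tRNA and rRNA genes.

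A set of members can be read against 3 libraries at once. For 961 members control, control + kanamycin and wbc19 mutant lay within 2-fold of each other. Of these, wbc19 mutant + kanamycin was at least 2-fold below all 3 for 108 (11.2%) and at least 2-fold above all 3 for 51 (5.31%). In the lower set 105 were protein-coding, while the higher set held 26 protein-coding genes and 22 tRNA genes. Of the group members with the other 3 libraries within 2-fold, the lower set held 3 of 12 cold and drought genes, 3 of 9 lipid transfer proteins and 3 of 70 ribosomal proteins without a named organelle, the last a smaller share than over all members. The light-harvesting and Calvin cycle groups had 0 members in either set, of 15 in each group.

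Single genes of the lower set are given as examples, picked after their values were seen and standing for no shared function. FBA8, a cytosolic aldolase of glycolysis, was at 214 and 73.6 FPKM in the mutant pair and 165 and 170.5 FPKM in the control pair. ACP1, a plastid acyl carrier protein that holds the growing fatty acid, was at 67.3 and 6.29 FPKM against 111 and 109.7 FPKM in the control pair, and MTACP-1, its mitochondrial counterpart, was at 69.0 and 8.79 FPKM against 86.3 and 74.8 FPKM in the control pair. ACBP3, an acyl-CoA-binding protein, was at 70.002 and 8.37 FPKM against 56.8 and 94.6 FPKM in the control pair. In these 4 genes the 3 other libraries were all above 50 FPKM. IMD1, the isopropylmalate dehydrogenase of leucine synthesis, was at 82.8 FPKM without kanamycin and 4.48 FPKM with it in the mutant pair and at 70.4 and 50.7 FPKM in the control pair. AT5G13420, a transaldolase of the pentose phosphate pathway, was at 38.8 and 2.37 FPKM against 33.4 and 44.2 FPKM in the control pair. CYSC1, the mitochondrial enzyme that detoxifies cyanide, was at 257 and 122 FPKM in the mutant pair and 281 and 280.4 FPKM in the control pair.

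Further examples of the lower set follow. TCH3, a calmodulin-like protein induced by touch, was at 128 and 45.4 FPKM in the mutant pair and 127 and 199 FPKM in the control pair. PYR1, an abscisic acid receptor, was at 64.5 and 20.4 FPKM against 60.02 and 77.5 FPKM in the control pair. SPX1, a sensor of phosphate status, was at 40.7 FPKM without kanamycin and 7.20 FPKM with it in the mutant pair and at 39.3 and 34 FPKM in the control pair. In these 3 genes the other libraries lay within 2-fold of each other. RUB1, a ubiquitin-like modifier of cullins, was at 39.1 and 5.44 FPKM against 42.0 and 73.1 FPKM in the control pair. UEV1D-4, a ubiquitin-conjugating enzyme variant, was at 42.7 and 1.63 FPKM in the mutant pair and 34.4 and 23.7 FPKM in the control pair. PHOS32, with a universal stress protein domain, was at 36.1 and 0 FPKM against 37.8 and 27.5 FPKM in the control pair. AKR2, which guides proteins to the outer envelope of the plastid, was at 90.5 FPKM without kanamycin and 10.0 FPKM with it in the mutant pair and at 58.8 and 54.7 FPKM in the control pair. In the opposite direction stood GR-RBP2, a glycine-rich RNA-binding protein of mitochondria, at 45.9 and 147 FPKM against 71.3 and 55.1 FPKM in the control pair. NTF2B, of nuclear import, was at 23.0 and 97.7 FPKM against 34.5 and 26.7 FPKM in the control pair, and ARASP, a plastid metalloprotease, was at 17.7 and 55.0 FPKM against 19.1 and 26.4 FPKM in the control pair. These genes were chosen for this pattern after their values were seen, and no replicate shows how often a single library would give it. For comparison, control + kanamycin stood alone in the same way, with the other 3 within 2-fold, for 113 members downwards and 126 upwards. The libraries without kanamycin did so as well, wbc19 mutant for 173 downwards and 163 upwards and control for 49 and 54.

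The kanamycin difference of the mutant pair was set beside that of the control pair, with which it shares no library. Across the 3702 members the Pearson correlation of the 2 differences was −0.01 and the Spearman correlation 0.01, given as a description since genes are not independent. Members at least 2-fold higher in both lines numbered 261 and those lower in both 258. Those higher in the mutant pair and lower in the control pair numbered 234, and 261 went the other way. ELF5A-3, TAPX, GSTU7 and EIL1 were among those higher in both lines, and JAZ10 and CSD1 among those lower in both.

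The threshold of 20 FPKM fell in the crowded part of the distribution. PBB1, just inside it, was at 11.2 and 7.79 FPKM in the mutant pair and 50.7 and 10.3 FPKM in the control pair. CYP51G1, just outside, was at 19.9 and 12.2 FPKM in the mutant pair and 34.7 and 13.1 FPKM in the control pair.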

How the data were processed

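Poly(A) RNA of whole seedlings was fragmented to short pieces and sequenced from one end after PCR, with no molecular identifiers and 1 library per condition. The deposited FPKM values came from the authors' Cuffdiff 1.3.0, run on transcripts that Cufflinks 2.0.2 had assembled from TopHat2 2.0.5 alignments to TAIR10, as the submitters' processing notes and the study's methods give them. The headers call these values rpkm. The deposited table also holds the authors' own fold changes, p-values, q-values and test status, which were not used. Number of columns of per-sample values left unmapped: 0.

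Of 33624 entries 33539 were used. Entries whose repeated values differed (78) or were missing (7) were left out, and 27 values of 0.01 beside a copy of 0 were read as 0. Members averaged 20 FPKM or more across the 4 libraries. Differences are log2(FPKM + 1) with kanamycin minus without, which understates the difference of low genes, and a size of at least 1 was counted. With 1 library per condition no test was run. Reads behind a value were estimated from the smallest steps of FPKM between low genes, with TAIR10.1 transcript lengths less an assumed fragment of 200 bases. Of low values, 68.2% to 77.5% came within 0.2 of a whole read. These estimates cover counting error only, and the fragments selected for sequencing were shorter than 200 bases.

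Of the members, 944 fell into 35 groups by patterns in the deposited descriptions and symbols. The members, groups and markers were chosen with earlier results of these data known. The patterns were corrected after the files were read, and the nuclear NDH group was split off after its values had been seen. Named were the 12 members with the largest difference in each direction among those above 0 in both libraries of the mutant pair, the 6 highest of those at 0 in one of them, per direction, 3 abundant members and the extremes of each group, the 10 members with the highest mean, WBC19, and the 4 members nearest to the threshold on either side. Further genes, among them those for which wbc19 mutant + kanamycin stood alone, were chosen after their values were seen. Some genes the rule names are not reported here. Near-identical genes (LHCB1, RBCS, elongation factor 1-alpha, histones, the repeated plastid genes) share short reads, and their single values are uncertain. Promoter windows were cut from the RefSeq TAIR10.1 genome, from which all coordinates come. The size rule was tried on simulated libraries with counting error only, which cannot show how far libraries of the same condition vary. Alternatives were other pseudocounts, filters on FPKM and scalings of the libraries, and the counts without genes listed at 0, without organelle genes, without short transcripts, without genes for which 1 library stood alone and for protein-coding genes only. Python 3.11.15 with numpy 2.4.6, pandas 2.3.3, scipy 1.17.1 and matplotlib 3.10.9 was used.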

Additional observations from a re-analysis of the deposited data

Results flagged for a closer look

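For 17 of the 187 members named with values, the log2 difference with kanamycin was at least 1 in opposite directions in the mutant pair and in the control pair, with all 4 libraries above 0. Each line has 1 library per condition, so the difference between the lines was not tested. Opposite directions also run along the split of the libraries seen in the tRNA genes, the same way or in reverse. They cannot be told apart from that split. 10 genes were higher with kanamycin in the mutant pair and lower in the control pair, given here as the log2 difference of the mutant pair and then of the control pair. They were PnsL1 (6.94 and −5.60), ALDH11A3 (6.08 and −4.74), FdC2 (5.31 and −1.13), AOC2 (3.73 and −1.52), ATPI (3.69 and −1.08), CYP83A1 (3.03 and −1.53), EXPA1 (2.59 and −1.94), PnsL2 (2.24 and −1.20), SAPX (1.68 and −1.04) and PCB2 (1.47 and −2.95). 7 genes were lower in the mutant pair and higher in the control pair. They were ECA2 (−5.51 and 2.36), AL3 (−5.35 and 1.65), PAF1 (−4.18 and 2.64), GSTU13 (−2.68 and 1.62), NDHC (−1.63 and 2.21), MT1B (−1.04 and 1.18) and MYC3 (−1.03 and 1.48). In 4 of these genes at least 1 library held under 1 estimated read, so the size of the difference rests on the pseudocount. With each library raised to at least the level of 3 reads the differences were AL3 (−4.14 and 1.65), ALDH11A3 (5.09 and −3.89), FdC2 (3.46 and −1.13) and PnsL1 (5.12 and −3.94), which are bounds. A further 11 named members had opposite directions with at least 1 library listed at 0, for which no difference is given. Over all members 234 and 261 showed these opposite patterns, beside 261 and 258 with a shared direction.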

How the results depend on the processing

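The counts and their balance depended on the filter on FPKM. With a mean of at least 5 FPKM, 3486 genes were higher and 2648 lower and the median was 0.077. With 50 FPKM the counts were 274 and 367, with no filter 6588 and 3629, and with at least 20 FPKM in each library 174 and 249. The median was −0.32 with the mean taken over the mutant pair, 0.12 after upper-quartile scaling and −0.17 without genes listed at 0. Higher genes were 47.1% of those past 2-fold, 56.8% at 5 FPKM, 64.5% without a filter, 38.5% with the mean over the mutant pair and 56.2% after upper-quartile scaling. In an alternative chosen after seeing the data, without the genes for which the library labelled wbc19 mutant stood alone, 428 genes were higher, 566 were lower and the Spearman correlation with the control pair was −0.14. The cause was not tested. Of the group medians, 28 of 512 values under the alternatives moved by more than 1.5-fold. Those of the ethylene and jasmonate, auxin, expansin and proteasome groups are given beside the groups. With a mean of at least 5 FPKM the median of glutathione S-transferases was −0.07. The mitochondrial genome's median was 0.01 at 50 FPKM and 3.78 with the mean over the mutant pair. Of the named genes, the 143 past 2-fold kept their direction under each pseudocount and scaling. Of the 44 within 2-fold, 11 changed sign with upper-quartile and 10 with median-of-ratios scaling, and the largest of these had a log2 difference of 0.233 in size, so no direction is read from them. Upper-quartile scaling brought 11 genes within 2-fold, with log2 differences of −0.82 (MT1A), −0.80 (MT1B), −0.95 (STV1), −0.97 (SAG21), −0.93 (LTP2), −0.83 (CYSC1), −0.87 (CYP83B1), −0.93 (GSTF10), −0.79 (LOX2), −0.81 (MYC3) and −0.89 (TRX3). MYC3 was also within 2-fold with median-of-ratios scaling (−0.91) and a pseudocount of 5 (−0.88). Below a mean of 50 FPKM genes rest on fewer reads per library, which limits what single values show. No paired analysis was possible because each condition has 1 library and no test was run.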
